A study of Homo sapiens with 8 samples.

Results

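Ctrl-only sites are G3BP1 peaks of untreated HEK293T cells that shared no nucleotide, on the same strand, with any peak found after PDS. There were 689 of them among 1421 Ctrl peaks, which is 48.5% of that list (exact 95% binomial interval 45.9 to 51.1%). They were chosen by this overlap alone, with no limit on enrichment or p, so the absence of an overlapping PDS peak is their definition and not a finding. The opposite set, PDS peaks without a Ctrl peak, held 2031 of 2925 peaks (69.4%).

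The sites came from seCLIP, in which UV light links RNA to the proteins that touch it, the protein is recovered with an antibody, and the attached RNA fragments are sequenced beside an input library made without antibody. HEK293T is an established human embryonic kidney cell line. The 8 libraries formed 4 groups of 2 replicates: input and G3BP1 immunoprecipitate (IP) from cells without treatment (Ctrl), and both from cells that had 20 µM PDS for 12 h ahead of the crosslink. What PDS abbreviates is not in the labels; in the guanine quadruplex field it is commonly pyridostatin. All groups came from this single line, and nothing in the labels says whether replicates were separate cultures.

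G3BP1 is a cytoplasmic RNA-binding protein and a core scaffold of stress granules, the droplets of mRNA and protein that form when translation initiation is blocked. It binds RNA through a recognition motif and a tail rich in arginine and glycine. Guanine quadruplexes are stacked planes of guanines that G-rich RNA can fold into, and pyridostatin binds and stabilises them. The comparison addresses which G3BP1 sites are found with and without that ligand.

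The authors deposited 1 peak list per condition that combines both replicates, so each peak has 1 log2 fold enrichment of IP over input and 1 −log10 p, without SD, and values per library were not analysed here. A peak missing from a list is one that was not called there: its signal below the authors' limits was not analysed here. Positions are in hg19 and counted from 1. Sites are given by position, because an hg19 annotation or genome was not used here, so genes, transcript parts and sequences were not assigned. No difference below has a replicate test. Intervals account for counting error alone, although adjacent peaks can share reads and transcripts.

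Ctrl-only peaks lay toward the low end of the Ctrl list in enrichment and in −log10 p. These are values of the list that the overlap rule used and are given as a description. Their median log2 fold was 3.43 (quartiles 3.19 and 3.74, highest 6.21), against 3.63 (quartiles 3.31 and 4.10) for the 732 Ctrl peaks that overlapped a PDS peak. Their median −log10 p was 9.55 (quartiles 6.85 and 13.8), against 15.4 (quartiles 10.3 and 26.2). The distributions overlapped over most of their range. A log2 fold of at least 4 was reached by 97 Ctrl-only peaks, or 14.1% (95% interval 11.6 to 16.9%), where the share over all Ctrl peaks was 22.0%. The value of 400, read as a stand-in for the highest −log10 p, occurred in 0 of 689 Ctrl-only peaks and in 8 of 732 overlapping ones. Several of those 8 were neighbouring pieces of a single site on chromosome 8, between 99057602 and 99057757. PDS peaks without a Ctrl peak had a median log2 fold of 3.47 and a median −log10 p of 15.5. Both were also below the medians over all PDS peaks, 3.59 and 17.8. Over all Ctrl peaks the median −log10 p was 11.9, so its level differed between the lists.

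**Figure D1:**
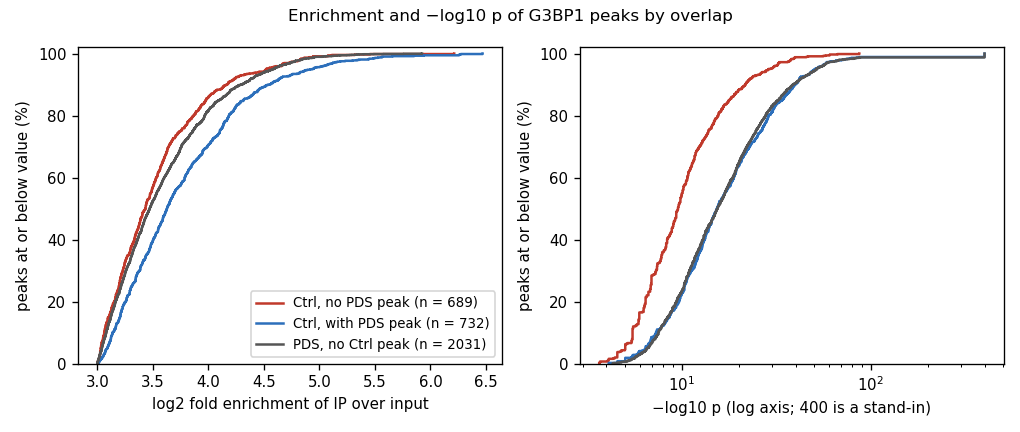
Cumulative share of peaks (y axis, percent) at or below each log2 fold enrichment (left x axis) and each −log10 p (right x axis, log scale), for 689 Ctrl peaks without a PDS peak, 732 Ctrl peaks with one and 2031 PDS peaks without a Ctrl peak. The red curve of Ctrl-only peaks lies to the left in both panels. In −log10 p its median is 9.55, and the other curves have medians of 15.4 and 15.5. That median is 11.9 over all Ctrl peaks and 17.8 over all PDS peaks, so its level differs between the lists.

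Within the Ctrl list the share of Ctrl-only peaks went with −log10 p in particular. It was 79.2% (95% interval 71.6 to 85.5%) among 144 peaks with a −log10 p under 6 and 69.1% among 194 peaks from 6 to 8. It was 59.5% from 8 to 12, 37.6% from 12 to 20 and 27.4% from 20 to 40. Among the 80 peaks at 40 or more it was 10.0% (4.42 to 18.8%), that is 8 peaks. Of those 8 peaks, 4 came from a single stretch on chromosome 5 described below, without which the share was 5.26% (4 of 76 peaks).

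Enrichment gave a less regular order. Ctrl-only peaks made up 57.6% of 681 Ctrl peaks with a log2 fold under 3.5 and 46.8% of 427 peaks from 3.5 to 4. They made up 29.4% of 194 peaks from 4 to 4.5, 42.0% of 81 peaks from 4.5 to 5 (31.1 to 53.5%) and 15.8% of 38 peaks at 5 or more (6.02 to 31.2%). In a given range of −log10 p, peaks on either side of a log2 fold of 4 had shares with overlapping intervals. From 12 to 20 the share was 35.6% (29.7 to 41.8%) for the less enriched and 42.5% (32.9 to 52.4%) for the more enriched Ctrl peaks. From 20 to 40 it was 26.1% and 28.6%. At 40 or more the order was the other way, with 19.4% (6 of 31, 7.45 to 37.5%) for the less enriched and 4.08% (2 of 49, 0.498 to 14.0%) for the more enriched. All peaks of the chromosome 5 stretch in this range were in the less enriched class, with log2 folds from 3.58 to 3.76. They made up most of its 6 Ctrl-only peaks, so this order rests largely on a single site. The median log2 fold of Ctrl-only and overlapping peaks was 3.87 and 3.67 from 12 to 20, 4.29 and 4.08 from 20 to 40, and 3.61 and 4.35 at 40 or more.

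Read the other way, at a given enrichment the Ctrl-only peaks had the lower −log10 p in each range of fold. Below a log2 fold of 3.5 the medians were 7.40 for Ctrl-only and 10.7 for overlapping peaks, from 3.5 to 4 they were 11.0 and 15.2, and from 4 to 4.5 they were 15.7 and 21.2. −log10 p depends on the number of reads as well as on the fold, and the part of read depth in these values was not tested. Few peaks lay below the lowest value of the PDS list, a −log10 p of 4.31: 11 Ctrl-only and 2 overlapping ones.

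**Figure D2:**
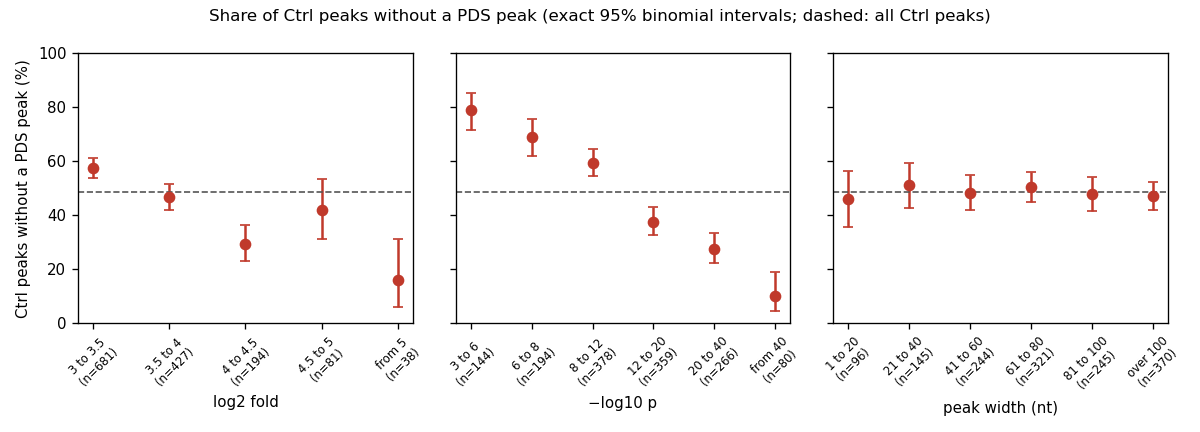
Share of Ctrl peaks without a PDS peak (y axis, percent; points with exact 95% binomial intervals) by log2 fold, −log10 p and peak width in nt, with the number of Ctrl peaks in each range below it and the share over all Ctrl peaks, 48.5%, dashed. The share goes from 79.2% to 10.0% along −log10 p and stays between 45.8% and 51.0% over all widths.

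Widths were similar in both sets. The median Ctrl-only peak was 74 nt wide (quartiles 51 and 101 nt, range 2 to 374 nt) and the median overlapping one 76 nt. Together the Ctrl-only peaks covered 54718 of the 112841 nt in the list. Across 6 classes of width the Ctrl-only share ranged from 45.8% (1 to 20 nt, 96 peaks) to 51.0% (21 to 40 nt, 145 peaks), and all intervals overlapped. Contact between neighbouring peaks was counted as well. Of the Ctrl-only peaks, 81 (11.8%, 95% interval 9.45 to 14.4%) shared a border with another Ctrl peak, against 208 overlapping Ctrl peaks (28.4%, 25.2 to 31.8%) and 724 PDS peaks without a Ctrl peak (35.6%) that touched a peak of their own list. Only 33 Ctrl-only peaks (4.79%) lay within 50 nt of an overlapping Ctrl peak, and 11 of these abutted it. Merging Ctrl-only peaks within 50 nt left 632 regions.

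The distance to the nearest PDS peak on the same strand separated near and remote sites. Within 100 nt of a PDS peak lay 94 Ctrl-only peaks, or 13.6% (95% interval 11.2 to 16.4%), of which 4 abutted it. Within 500 nt lay 195 (28.3%), and within 10000 nt 394 (57.2%). At the other extreme, 124 had no PDS peak within 1000000 nt. The median log2 fold showed no steady order with distance. It lay between 3.43 and 3.59 in the 7 classes up to 100000 nt, was 3.29 in the 79 peaks of the next class and 3.33 in the 124 most remote ones. The median −log10 p was lower in remote classes. It was 14.1 up to 10 nt, lay between 9.50 and 12.1 in the classes from 11 to 100000 nt, and was 7.80 and 7.84 in the last 2 classes. Among the 195 peaks within 500 nt, the nearest PDS peak lay upstream in 112 and downstream in 83 along the transcribed strand (57.4% upstream, 50.2 to 64.5%). The order changed in farther classes. The counts were 21 and 24 from 501 to 1000 nt, 86 and 68 from 1001 to 10000 nt, and 37 and 55 from 10001 to 100000 nt. Ctrl-only peaks of a locus can share their nearest PDS peak, and no other set of peaks was counted this way.

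**Figure D3:**
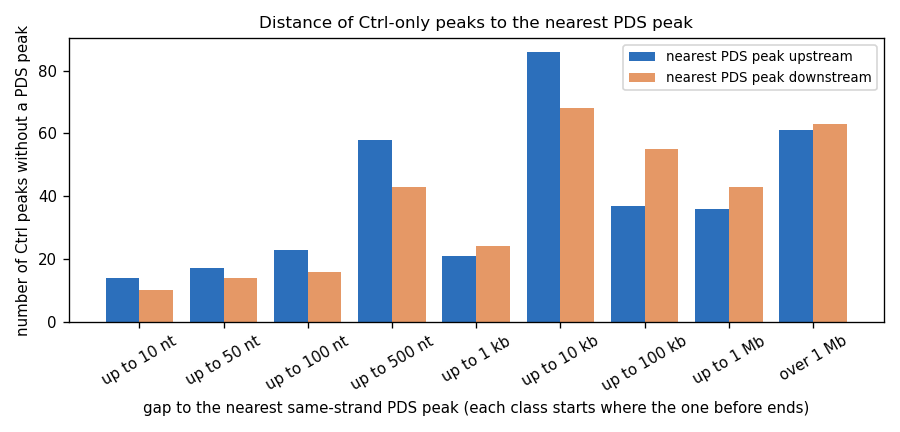
Number of Ctrl peaks without a PDS peak (y axis) in each class of distance to the nearest same-strand PDS peak (x axis, each class starting where the one before ends), split by whether that PDS peak lies upstream (blue) or downstream (orange) along the strand. The fullest class, from 1001 to 10000 nt, holds 154 peaks, and 124 lie beyond the last limit.

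For the 94 Ctrl-only peaks with a PDS peak within 100 nt, both values were set side by side. The median log2 fold was 3.59 over all PDS peaks, 3.52 over all Ctrl peaks and 3.43 over all Ctrl-only peaks. In the same order the median −log10 p was 17.8, 11.9 and 9.55. The part of these differences in the pairs was not tested. The nearest PDS peak had the higher log2 fold for 66 of the 94 and the lower for 28, with a median difference of 0.18 (quartiles −0.07 and 0.63). Its −log10 p was higher for 69 of 94. These folds were computed in separate lists, and their difference has no error.

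Peaks just inside and just outside the rule differed by as little as 1 nt of overlap. In 5 peaks on each side, log2 folds ran from 3.54 to 6.21 inside and from 3.26 to 3.91 outside. Their −log10 p values ran from 11.8 to 66.7 inside and from 7.80 to 57.9 outside. The Ctrl-only peaks closest to a PDS peak abutted it: 62902758 to 62902847 on chromosome 1 (plus strand, log2 fold 3.93), 106641241 to 106641310 on chromosome 12 (minus, 3.90), 103988168 to 103988199 on chromosome 14 (minus, 3.54) and 153593060 to 153593082 on chromosome X (minus, 4.05). The next, on chromosome 8 at 99057758 to 99057772, was separated from a PDS peak by 1 nt. Just outside the rule, 19838081 to 19838143 on chromosome 6 (plus strand, log2 fold 3.67) and 152966234 to 152966311 on chromosome X (minus, 3.51) shared 1 nt with a PDS peak. Sites on chromosome 12 at 6646753 to 6646775 (plus strand, 3.26) and at 7079580 to 7079636 (minus strand, 3.91) shared 2 nt, and so did one on chromosome 14 at 103988217 to 103988229 (minus strand, 3.44).

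To see whether the surroundings of these sites also lacked PDS peaks, same-strand peaks of both lists no more than 10000 nt apart were joined into loci, a substitute for transcripts. The 689 Ctrl-only peaks lay in 453 of the 667 loci with Ctrl peaks. In 119 loci they stood beside overlapping Ctrl peaks (283 Ctrl-only peaks). In 92 loci both lists had peaks but none overlapped (114 Ctrl-only peaks and 217 PDS peaks), and in 242 loci there were 0 PDS peaks (292 Ctrl-only peaks, 42.4%, 95% interval 38.7 to 46.2%). That last share depended on the gap: it was 64.3% with gaps of up to 1000 nt and 32.5% with gaps of up to 50000 nt. Most of these loci held little: 332 of the 453 held 1 Ctrl-only peak, 78 held 2 and 43 held 3 or more.

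Loci with few Ctrl peaks, whatever their number of PDS peaks, had the largest Ctrl-only share. It was 64.2% (276 of 430, 95% interval 59.5 to 68.7%) for peaks alone in their locus in the Ctrl list, and 200 of those 276 had no PDS peak in the locus. It was 51.6% in loci with 2 Ctrl peaks, 41.7% in loci with 3 to 5 and 36.6% (32.3 to 41.1%) in the 42 loci with 6 or more. A locus with many peaks offers more places for overlap, and that part in the order was not tested.

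Sites whose whole locus lacked PDS peaks were wide and weakly enriched. Their median width was 90 nt (quartiles 67 and 125 nt), against 65 nt (44 and 84 nt) for the 397 Ctrl-only peaks with a PDS peak in the locus. Their median log2 fold was 3.34 against 3.50, and their median −log10 p 8.33 against 10.8. In the 242 loci without a PDS peak, 200 held 1 Ctrl-only peak, 38 held 2 and 4 held 3 or more.

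Those 4 loci were unlike each other. On the plus strand of chromosome 5, 6 Ctrl-only peaks of 2 to 18 nt lay within 138614483 to 138614552, with log2 folds from 3.11 to 3.76 and −log10 p values from 39.4 to 87.0, and 87.0 was the highest of all Ctrl-only peaks. The nearest PDS peak was 43 kb away, at 138657627 to 138657719 downstream, with a log2 fold of 3.06. The other 5 peaks of the stretch had −log10 p values up to 60.8, below the 66.7 of a Ctrl-only peak on chromosome 8. On the minus strand of chromosome 12, 4 peaks between 49435078 and 49445508 had log2 folds of 3.16, 3.58, 3.55 and 3.43, and their −log10 p values ran from 6.92 to 10.2. On chromosome 22, a 527-nt plus-strand locus at 24236593 to 24237119 held 3 peaks with log2 folds of 3.34, 3.98 and 3.57 and −log10 p values of 20.2, 17.3 and 16.2. A minus-strand locus at 29736696 to 29745348 held 3 weaker peaks, with log2 folds of 3.47, 3.64 and 3.23 and −log10 p values from 5.97 to 7.80.

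The most enriched sites in loci without a PDS peak were single peaks 90 to 132 nt wide. The median width over all Ctrl-only peaks in such loci was 90 nt. The first, on chromosome 1, minus strand, at 149857735 to 149857834, had a log2 fold of 5.11 and a −log10 p of 28.6, with the nearest PDS peak 27098 nt upstream. The other 4 were on plus strands. A log2 fold of 4.81 was given for 18147922 to 18148015 on chromosome 17 and 4.68 for 10942285 to 10942416 on chromosome 19. The values were 4.66 for 65496249 to 65496338 on chromosome 2 and 4.55 for 151561728 to 151561852 on chromosome 6. Each was the only Ctrl peak of its locus, and for the last 4 the nearest PDS peak lay more than 100000 nt away.

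Of the 97 Ctrl-only peaks with a log2 fold of at least 4, 72 had a PDS peak in the locus and 25 had none, where 397 of all 689 had one (57.6%). The 97 lay in 64 loci. Of them, 23 came from the 5 loci with most Ctrl-only peaks, described below, which all held PDS peaks. A PDS peak lay within 500 nt of 37 of the 97 and within 100 nt of 17, and their median distance was 1518 nt. Among the 10 most enriched, taking 1 per locus, all but the chromosome 1 site above had PDS peaks in the locus.

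The highest log2 fold of any Ctrl-only peak, 6.21, belonged to a 15-nt peak on chromosome 8, minus strand, at 99057758 to 99057772. It was the upstream end of a run whose other pieces overlapped PDS peaks, and the PDS peak at 99057738 to 99057756 had a log2 fold of 5.49. Second was chromosome 17 at 80036538 to 80036630 (minus strand, 93 nt) with a log2 fold of 5.45; the nearest PDS peak, 379 nt upstream, reached 3.01. Next was chromosome 14 at 103986096 to 103986124 (minus strand, 29 nt) with 5.32, with a PDS peak of log2 fold 3.84 lying 105 nt upstream. In these 3 cases the nearest PDS peak had the lower log2 fold, but the sites were chosen for a high log2 fold, which favours that order.

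Of the 6 other sites near PDS peaks, 4 also exceeded the nearest PDS peak in log2 fold and 2, both on chromosome 3, did not. These sites too were chosen for a high log2 fold, so the counts describe them alone. Among the 94 Ctrl-only peaks within 100 nt of a PDS peak, not chosen by fold, that PDS peak was higher for 66 and lower for 28. On the plus strand of chromosome 3, 41281499 to 41281583 had a log2 fold of 5.08, and the nearest PDS peak, 698 nt upstream, 5.28. On the minus strand of chromosome 6, 26056507 to 26056546 also had 5.08, with a PDS peak of 4.67 lying 9 nt downstream. The X chromosome site at 153596086 to 153596105 (minus strand) had 4.94, with a PDS peak of 4.24 at a distance of 29 nt. The plus-strand site on chromosome 3 at 184052940 to 184052989 also had 4.94, and a PDS peak of 5.24 lay 25 nt upstream. On chromosome 5, 176885287 to 176885397 (minus strand) had 4.86, with a PDS peak of 4.71 at 58 nt. The last of the 10, on chromosome 17 at 7215152 to 7215228 (plus strand), had 4.86, and a PDS peak of 4.17 lay 74 nt downstream.

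The 5 loci with most Ctrl-only peaks held 54 of them. Most, 18, lay on chromosome 8, minus strand, between 144990307 and 145008211, beside 14 overlapping Ctrl peaks and 48 PDS peaks. Its Ctrl-only peaks were 14 to 83 nt wide and had log2 folds from 3.16 to 4.75 (median 3.97), no lower than the median of 3.81 of the overlapping peaks. The PDS peaks of this locus had a median of 4.66. The 7 Ctrl-only peaks at its downstream end, from 144990307 to 144993772, lay past every PDS peak of the locus. They had log2 folds from 3.38 to 4.33 and spanned 3466 nt.

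The chromosome 3 locus between 184017025 and 184053095, plus strand, held 10 Ctrl-only, 17 overlapping and 41 PDS peaks. Of the Ctrl-only peaks, 7 had log2 folds from 3.08 to 3.36; the others reached 3.97, 4.94 and 4.53, and the last 2 of these were the 2 peaks past the last PDS peak, at 184052940 to 184052989 and 184053011 to 184053095. On chromosome 17 between 80036498 and 80049172, minus strand, there were 9 Ctrl-only, 10 overlapping and 29 PDS peaks. Its 3 most downstream Ctrl peaks, at 80036498 to 80036532, 80036538 to 80036630 and 80036733 to 80036807, had log2 folds of 4.25, 5.45 and 4.66, were Ctrl-only and lay past every PDS peak. The highest log2 fold among all PDS peaks of that locus was 4.05, so each of the 3 exceeded it.

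The chromosome X locus between 153577052 and 153596260, minus strand, differed in its proportions. It held 9 Ctrl-only peaks among 43 Ctrl peaks (20.9%) beside 72 PDS peaks. The Ctrl-only peaks were short, 11 to 49 nt, and all lay within 545 nt of a PDS peak. Their median log2 fold was 4.66, beside 4.36 for the overlapping Ctrl peaks and 4.77 for the PDS peaks of the locus. Here 0 Ctrl peaks lay past the last PDS peak.

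On chromosome 3 between 41266111 and 41281583, plus strand, Ctrl-only peaks were the larger part: 8 of 12 Ctrl peaks were Ctrl-only, and the locus held 3 PDS peaks. Those PDS peaks, at 41275020 to 41275092, 41275141 to 41275248 and 41280642 to 41280800, had log2 folds of 4.58, 4.76 and 5.28, and all overlapped Ctrl peaks. Between them, from 41277235 to 41279566, lay 5 Ctrl-only peaks with log2 folds of 4.52, 4.55, 3.58, 3.33 and 3.51. The locus began with a Ctrl-only peak of 3.996 at 41266111 to 41266213, a further one of 3.22 lay at 41275288 to 41275345, and it ended with the peak of 5.08 named above. The 3 PDS peaks had higher log2 folds than the 4 overlapping Ctrl peaks taken by their medians, 4.76 against 4.15.

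**Figure D4:**
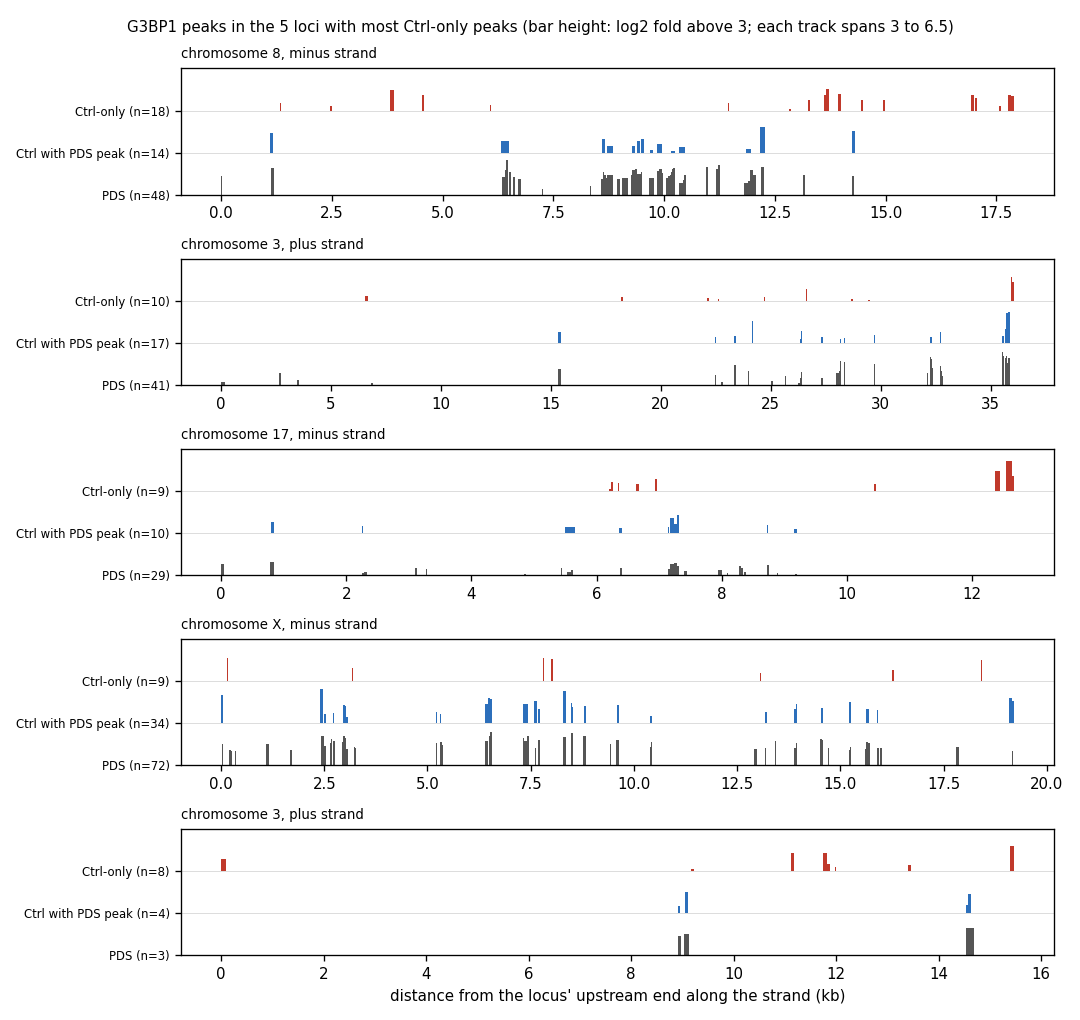
Positions of Ctrl-only peaks (red), Ctrl peaks that overlap a PDS peak (blue) and PDS peaks (grey) in the 5 loci with most Ctrl-only peaks; the x axis is the distance in kb from the upstream end of the locus along its strand, and bar height is the log2 fold above 3, with each track spanning 3 to 6.5. Very narrow peaks are drawn at a minimum width. At the right-hand end of the loci on chromosomes 8 and 17 and of both on chromosome 3, red bars stand past the last grey bar, with 7, 3, 2 and 1 peaks; on chromosome X there are 0.

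Position along the strand was then counted over all loci with at least 3 Ctrl peaks and a PDS peak, a count chosen after these maps had been seen. In 111 such loci the most downstream Ctrl peak was Ctrl-only in 55 (49.5%, 95% interval 39.9 to 59.2%) and the most upstream one in 44 (39.6%, 30.5 to 49.4%). Of the 509 peaks between them, 172 were Ctrl-only (33.8%, 29.7 to 38.1%). Without the 5 loci above the shares were 48.1%, 39.6% and 32.1%. An outermost peak has neighbours on 1 side only, and the part of this in the shares was not tested. In the PDS list, counted the same way, peaks without a Ctrl peak made up 59.9% of the most downstream, 54.0% of the most upstream and 58.6% of the inner peaks, in 187 loci.

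In 92 loci G3BP1 peaks were found in both conditions but at different places. The smallest distance between a Ctrl-only and a PDS peak in these loci had a median of 1184 nt (quartiles 160 and 3236 nt), was within 100 nt in 17 loci and over 1000 nt in 48. The strongest Ctrl-only peak had a higher log2 fold than the strongest PDS peak in 31 of the 92. These loci held 114 Ctrl-only and 217 PDS peaks. More peaks give more chances of a high value, and that part in the count was not tested. The locus of this kind with most Ctrl-only peaks lay on chromosome 1 between 228285298 and 228286660, plus strand. It held 4 Ctrl-only peaks with log2 folds of 4.52, 4.52, 4.14 and 3.34, downstream of a single PDS peak at 228285298 to 228285409 with a log2 fold of 3.30. This locus was chosen for its count.

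Within the 119 loci that held both kinds of Ctrl peak, the strongest Ctrl peak was Ctrl-only in 41. Over the whole list 48.5% of Ctrl peaks were Ctrl-only, but these loci hold both kinds by definition, so that share need not be theirs. Relative to the overlapping peaks of their locus, 114 of the 283 Ctrl-only peaks lay between them, 95 downstream of all and 74 upstream of all. Neither count was set against the number and places of Ctrl peaks of each kind in these loci.

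Ctrl-only peaks occurred on all 23 chromosomes with Ctrl peaks, in numbers that followed the list. Chromosome 19 had most (80 of 157 Ctrl peaks, 51.0%), then chromosomes 1 (59 of 125, 47.2%) and 17 (55 of 108, 50.9%). Among chromosomes with at least 20 Ctrl peaks the share ran from 23.1% on chromosome 20 (6 of 26, 95% interval 8.97 to 43.6%) to 56.2% on chromosome 11 (36 of 64, 43.3 to 68.6%). Chromosome 20 alone had an interval that did not reach the share over the whole list, and its 26 Ctrl peaks came from 9 loci. By strand the share was 52.5% of 625 plus-strand peaks (48.5 to 56.5%) and 45.4% of 796 minus-strand peaks (41.9 to 48.9%). On the opposite strand, 0 Ctrl-only peaks overlapped a PDS peak.

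**Figure D5:**
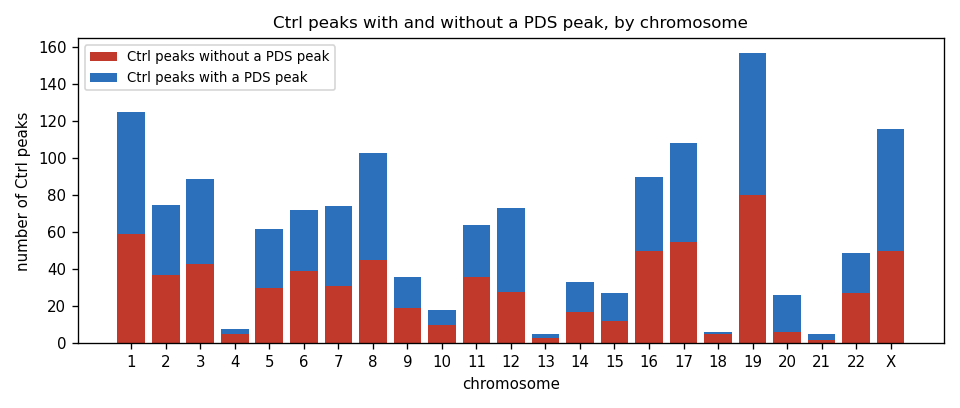
Number of Ctrl peaks (y axis) per chromosome (x axis), split into peaks without a PDS peak (red) and with one (blue). Chromosome 19 holds 80 Ctrl-only peaks of 157, and chromosome 20 has 6 of 26.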

How the data were processed

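Per the submitters' processing notes, the tools were STAR, UMI-tools and cutadapt and the build hg19. Not given in the sources used here are the peak caller, the filters and how replicates were joined. The authors deposited 1 headerless list per condition with 6 columns. The fourth was read as the deposited −log10 p and the fifth as the deposited log2 fold of IP over input, both inferred from the values and the usual layout of such peak files. Starts were read as counted from 0. The depth behind a peak is unknown.

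A Ctrl peak was Ctrl-only if fewer than 1 nt lay in a same-strand PDS peak. Distances are the nt between peaks. Loci were chained over gaps of up to 10000 nt. Overlaps and distances were computed with pandas 2.3.3 and numpy 2.4.6 under python 3.11.15, and tested on simulated data against a brute-force search. Figures were made with matplotlib 3.10.9. Shares have exact (Clopper-Pearson) 95% intervals. No test was made, because lists hold no value per replicate and regions are not replicates.

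Named items were the 10 most enriched Ctrl-only peaks (1 per locus), the 5 loci with most, loci with at least 3 and no PDS peak, the 5 most enriched in loci without a PDS peak, and 5 peaks on each side of the rule. The sites, lists and rules were chosen with earlier results of these data known. Parts of the design that need genes or sequences were not carried out, as an hg19 annotation or genome was not used here. Alternatives concerned the definition of overlap, thresholds, merging and the gap of a locus.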

Additional observations from a re-analysis of the deposited data

How the results depend on the processing

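Of 18 alternative values, 8 stayed within the 95% interval of the reported one and 10 moved outside it. The Ctrl-only share of 48.5% became 59.96% with reciprocal overlap of 50%, 41.9% when a PDS peak within 100 nt counted as shared and 34.8% within 500 nt. It was 54.6% when peaks of both lists had to reach a log2 fold of 4 and a −log10 p of 5, 31.0% when only Ctrl peaks had to and 63.7% with the PDS list shortened to the Ctrl length by log2 fold. The median width was 77 nt and 82 nt with distances of 100 and 500 nt. The share of Ctrl-only peaks in loci without a PDS peak was 64.3% with gaps of up to 1000 nt and 32.5% with gaps of up to 50000 nt. The causes were not tested, beyond what each definition sets. Leaving out the 5 loci with most Ctrl-only peaks was chosen after seeing the data. Alternatives on transcript regions and quadruplex patterns were not run. No paired analysis was possible because the peak lists hold both replicates joined; values per library were not analysed here, so no replicate was left out in turn. Unknown depth limits any statement on a missing peak.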
